A study of Mus musculus with 8 samples.

Results

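SLIT2 and acetaminophen (APAP) were given to mice alone and together, and the interaction of the 2 agents was measured in liver by RNA sequencing. All 8 libraries of the series were used, 2 in each of 4 groups, and all 16876 genes that passed a filter on low counts were tested. The interaction of a gene is the log2 change with SLIT2 among APAP-treated animals minus the log2 change with SLIT2 among animals that had no APAP. It is positive where SLIT2 raised the gene more, or lowered it less, in animals that also received APAP. Genes were then sorted by the group whose mean stood apart from the other 3 groups.

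The animals were labelled wild type. Control animals received phosphate-buffered saline (PBS). The SLIT2 group received 2 µg of SLIT2 per mouse intraperitoneally for 3 days. The APAP group was given PBS and also APAP, dosed at 400 mg/kg. Both agents were combined in the SLIT2+APAP group, which the submitters call Double. Livers were taken 24 hours after APAP and snap-frozen. The sources used here do not give strain, sex or age. The labels also do not say that libraries of a group came from separate animals, so p-values measure the spread between these libraries, which may be technical. The labels number the APAP libraries 3 and 4 and those of the other groups 1 and 2.

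SLIT2 is a secreted guidance protein that signals through ROBO receptors and is best known for repelling growing axons, and it also acts on endothelial and immune cells. APAP is oxidised by cytochrome P450 enzymes of the hepatocytes around the central vein to a reactive product that glutathione neutralises. An overdose exhausts glutathione, injures mitochondria, activates stress kinases and kills these pericentral hepatocytes, and surviving cells then enter repair and division. Immediate early genes are switched on within minutes of such signals, before new protein is made.

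The SLIT2 libraries stood apart from all others before any gene was tested. Total counts ranged from 60.8 M to 100.5 M per library. The 13 mitochondrially encoded genes took 60.2% and 69% of the counts in the SLIT2 libraries, 25.1% and 30.3% in the SLIT2+APAP libraries and 13.4% to 17.3% in the control and APAP libraries. Counts outside these genes were 25.1 M and 18.9 M in the SLIT2 libraries and 55.2 M to 85.8 M elsewhere. On the first principal component (62.3% of variance) the SLIT2 libraries scored 159.4 and 175.7, and the other 6 scored between -92 and 5.3. Transcript length moved with the interaction, whose median fell from 0.5 in the shortest quintile of genes to -0.49 in the longest. The part of mitochondrial share, depth and length in the interaction was not tested apart from the alternatives of the closing section, and none of them can be told apart from SLIT2 treatment without APAP.

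The effect of SLIT2 depended on APAP for 4867 of 16876 genes, or 28.8%, at a Benjamini-Hochberg adjusted p under 0.05. The interaction was positive for 2615 genes (15.5%) and negative for 2252 (13.3%), and its median over all genes was -0.09. Single libraries moved this count by over 1.5 times: it was 1456 and 1739 without control library 1 or 2, 2050 without SLIT2 library 2, 1002 and 2081 without SLIT2+APAP library 1 or 2, and 8303 without APAP library 4. SLIT2 without APAP changed 9266 genes (54.9%), whereas SLIT2 among APAP-treated animals changed 2351 (13.9%). The latter count was 3532 by DESeq2, 21 without SLIT2+APAP library 2 and 6133 without APAP library 4. APAP without SLIT2 changed 133 genes (0.788%, with 0.332% raised and 0.456% lowered), between 0 and 5181 when 1 library was left out and 1836 by DESeq2, whereas APAP on top of SLIT2 changed 6851 (40.6%). Both agents together against control changed 365 genes (2.16%, with 0.717% raised and 1.45% lowered), and SLIT2 against APAP differed for 9546 (56.6%). Across genes the SLIT2 effect had an SD of 2.27 on the log2 scale without APAP and 1.34 with it. These SLIT2 effects share no library, and their Pearson correlation across genes was 0.38, given as a description because genes are not replicates. The effects of APAP without and with SLIT2, which also share no library, had a correlation of 0.001.

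**Figure D1:**
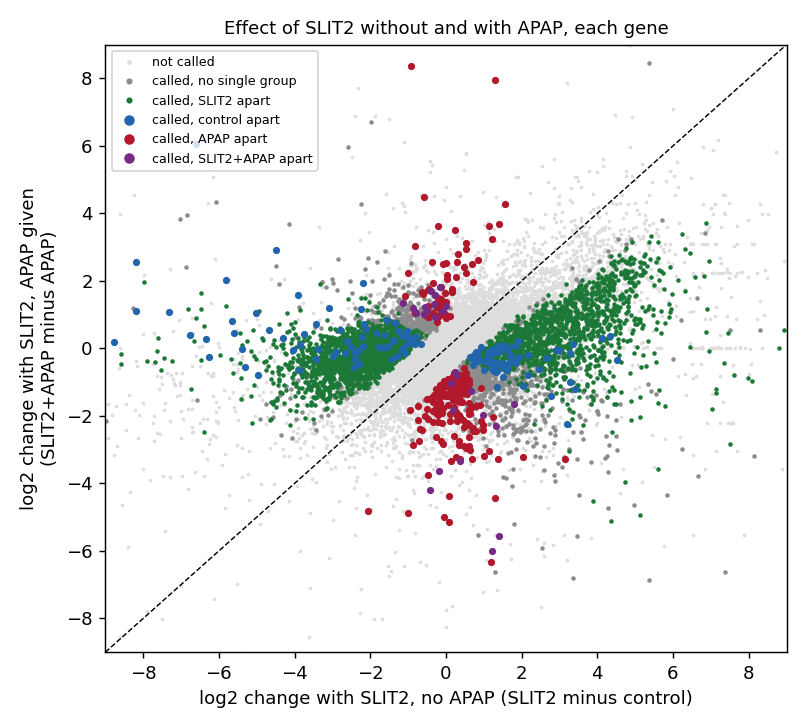
Each point is a gene, with the log2 change with SLIT2 in the absence of APAP on the horizontal axis and in its presence on the vertical axis, and the dashed line marks equal effects. Genes called with SLIT2 apart (green) lie along the horizontal axis and genes called with APAP apart (red) along the vertical axis, and 78 genes lie beyond the axes at 9 log2 units.

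Most called genes passed the test of the SLIT2 effect without APAP and did not with it. For 2176 of the 4867 called genes (44.7%), SLIT2 lowered the gene without APAP and the change with APAP did not pass the test. For a further 1570 (32.3%), SLIT2 raised the gene without APAP and the change with APAP did not pass. SLIT2 raised 257 called genes in both settings, by less with APAP, and lowered 210 in both settings, by less with APAP. SLIT2 changed the gene only in the presence of APAP, by the threshold in each setting, for 182 genes that it lowered and 86 that it raised. Opposite directions that both passed were seen for 52 and 47 genes.

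A group was taken to stand apart where the gap from its mean log2 CPM (counts scaled to a common library size) to the nearest other mean was larger than the range of the other 3 means. This sorting is a description, since an interaction of this form arises whenever a single group departs. Among called genes the SLIT2 group stood apart on the low side for 1985 (40.8%) and on the high side for 1351 (27.8%). The APAP group stood apart as high for 156 (3.21%) and as low for 60 (1.23%), and these were 6 and 8 without SLIT2+APAP library 1 and 1032 and 722 without APAP library 4. The control group stood apart as high for 80 and low for 68, and the SLIT2+APAP group as high for 13 and low for 13. No single group stood apart for 1141 (23.4%). As shares of all genes tested, these called classes were 11.8% for SLIT2 low, 8.01% for SLIT2 high, 0.924% for APAP high, 0.356% for APAP low, 0.474% for control high, 0.403% for control low and 0.077% for SLIT2+APAP on either side. Over all genes tested the SLIT2 group was apart as low for 3919 (23.2%) and as high for 3603 (21.3%), and the APAP group as high for 1265 (7.5%) and as low for 848 (5.02%).

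**Figure D2:**
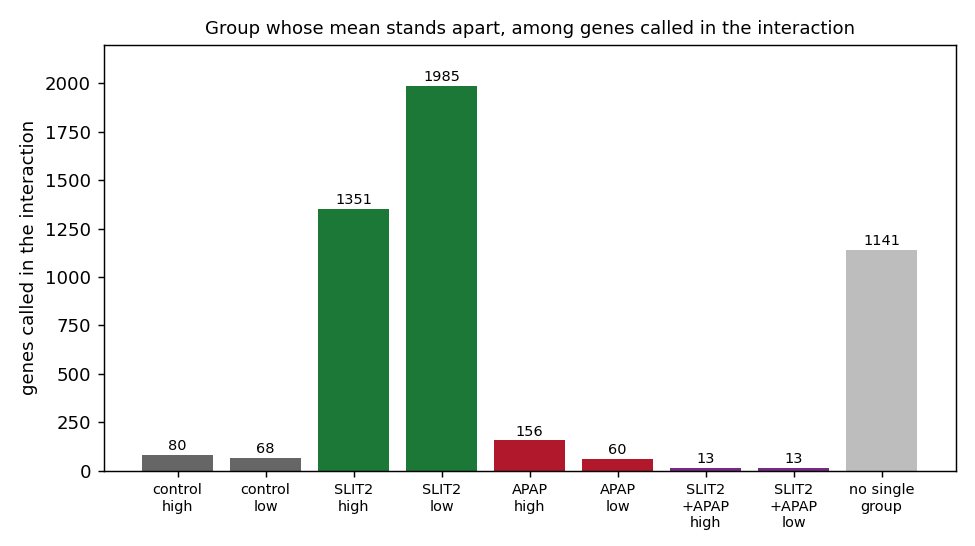
Bars count the genes called in the interaction by the group whose mean stood apart, high or low. The SLIT2 group accounts for 1985 and 1351 genes, and the SLIT2+APAP group for 13 and 13.

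A stricter sorting, which asked that a group differ from each of the other 3 groups in the same direction with an adjusted p under 0.05, was met by 3002 genes for SLIT2 low (17.8%) and 2871 for SLIT2 high (17%). It was met by 27 genes for APAP high (0.16%) and 30 for APAP low (0.178%), 41 for control high (0.243%) and 3 for control low (0.0178%), and 5 for SLIT2+APAP high (0.0296%) and 6 for SLIT2+APAP low (0.0356%). Where a group met it as high and a different group as low, as for Mgst3, the gene was counted only as low. Counts on the high side are therefore minimums. The groups differed in how well their libraries matched: within a group they differed by a median of 0.601 log2 units in APAP, 0.36 in SLIT2, 0.219 in SLIT2+APAP and 0.215 in control, without regard to sign. Asked only that both libraries of some group lie beyond the other 6, 76.8% of all genes tested qualified.

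Genes for which the APAP group stood apart as high were led by Btg2, Ier2 and Egr1. Btg2, an antiproliferative gene induced by p53 and by growth signals (chr1:134075170-134079120, minus strand, GRCm38), was at 116 and 105 CPM in the APAP libraries. It was at 4.87 and 3.95 CPM in control, 3.95 and 5.36 in SLIT2, and 4.07 and 6.66 in SLIT2+APAP. The APAP libraries thus lay far above all 6 others, which overlapped one another. APAP alone raised Btg2 by 4.65 ± 0.33 on the log2 scale (SE, adjusted p = 0.006499), and SLIT2 in the presence of APAP lowered it by -4.37 ± 0.32 (adjusted p = 0.004034). SLIT2 without APAP left it at 0.08 ± 0.29, and the interaction was -4.44 ± 0.42 (adjusted p = 0.003125).

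Ier2, an immediate early nuclear protein, was at 246 and 145 CPM in the APAP libraries and between 20.2 and 35 in the 6 others, with an interaction of -3.49 ± 0.43 (adjusted p = 0.003619). Egr1, a zinc finger transcription factor induced by mitogens and injury, was at 635 and 170 CPM in the APAP libraries. Its other values were 3.79 and 2.81 in control, 7.7 and 7.24 in SLIT2 and 2.39 and 7.57 in SLIT2+APAP. The 2 APAP libraries differed from each other by several-fold, and both exceeded every other library. The interaction of Egr1 was -7.51 ± 1.02 (adjusted p = 0.004255), and it was -6.24 without APAP library 3 and -8.11 without APAP library 4.

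The immediate early genes were the list with the largest called share on the negative side. Of 22 members tested, 9 had a negative interaction that passed and none a positive one, 40.9% against 13.3% of all genes. All 22 estimates were below 0, and the median was -3.57 against -0.09 for all genes. The 9 were Fos, Jun, Junb, Jund, Egr1, Egr2, Ier2, Zfp36 and Btg2. The APAP group stood apart as high for 20 of the 22 members, against 7.5% of all genes tested. The median APAP effect of the list was 3.52 without SLIT2 and 0.49 with it, and the median SLIT2 effect was -0.15 without APAP and -2.82 with it. Members called numbered 5 when control library 1, SLIT2 library 2 or SLIT2+APAP library 1 was left out and 19 when APAP library 4 was left out. The median was -1.89 without APAP library 3.

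The AP-1 subunits of this list moved alike. Fos was at 40 and 62 CPM in the APAP libraries and at or under 2.73 in all others, with an interaction of -3.87 ± 0.78 (adjusted p = 0.01225). Jun was at 524 and 172 CPM in APAP and at 5.51 to 16.3 elsewhere, with an interaction of -4.93 ± 0.9 (adjusted p = 0.008943). Junb was at 226 and 116 CPM in APAP and at 12 to 30.6 elsewhere, and Jund at 183 and 122 against 26.3 to 45. Zfp36, which encodes an RNA-binding protein that destabilises inflammatory mRNAs, was at 396 and 200 CPM in APAP and 45.4 to 84 elsewhere (interaction -2.46 ± 0.53, adjusted p = 0.0147). For each of these genes the APAP libraries did not overlap the others. Other members were high mainly in APAP library 3: Atf3, a stress-induced repressor, was at 265 CPM there and 11 in APAP library 4 against 0.308 to 2.88 elsewhere, and its interaction of -5.66 ± 1.96 did not pass (adjusted p = 0.06282).

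Promoters of 3 of these genes are shown. The genes moved together, and the elements found in full letters in the 250 bases before the start site differ. Sequences are from RefSeq on GRCm38.p6, written along the gene's strand. Capitals mark a cAMP response element (CRE) in Btg2 at chr1:134079156-134079405 (minus strand), beginning 166 bases before the start. They mark a CArG box, the site of serum response factor, in Zfp36 at chr7:28379229-28379478 (minus strand), beginning 58 bases before the start. In full letters, neither of these elements, nor the AP-1 site, E-box, heat shock or ER stress element, was in the window of Fos, chr12:85473640-85473889 (plus strand). Only full letters were searched. The Fos window does hold tgacgt, which is the CRE (TGACGTCA) without its last letters. The CCAAT and GC boxes, common to many promoters, are not marked.
Btg2: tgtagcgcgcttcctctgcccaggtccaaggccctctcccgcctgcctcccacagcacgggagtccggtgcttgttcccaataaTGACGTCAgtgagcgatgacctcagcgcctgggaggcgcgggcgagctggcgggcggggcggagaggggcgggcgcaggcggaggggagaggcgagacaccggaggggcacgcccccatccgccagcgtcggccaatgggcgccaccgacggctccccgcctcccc
Zfp36: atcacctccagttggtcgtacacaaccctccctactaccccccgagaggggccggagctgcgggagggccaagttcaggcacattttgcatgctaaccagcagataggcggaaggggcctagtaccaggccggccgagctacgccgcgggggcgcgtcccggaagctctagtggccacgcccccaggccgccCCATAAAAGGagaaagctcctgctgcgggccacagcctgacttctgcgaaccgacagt
Fos: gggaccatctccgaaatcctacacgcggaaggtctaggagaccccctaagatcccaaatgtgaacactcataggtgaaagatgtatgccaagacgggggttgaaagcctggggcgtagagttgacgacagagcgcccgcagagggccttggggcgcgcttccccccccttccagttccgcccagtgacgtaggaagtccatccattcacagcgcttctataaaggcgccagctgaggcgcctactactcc

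Across promoters, both strands searched, the CRE (TGACGTCA) was in 3.92% of 153 promoters of called APAP-high genes and 2.27% of 15447 promoters of all genes tested. The CArG box was in 2.61% and 1.23%. The AP-1 site (TGACTCA, whose other strand reads TGAGTCA) was in 2.61% and 3.66%, and the E-box (CACGTG) in 7.19% and 7.59%. The CCAAT box (CCAAT) was in 37.9% and 35%, and the GC box (GGGCGG) in 62.1% and 52.4%. The heat shock element (GAA, TTC and GAA, each separated by NN) was in 0.654% and 0.35% and the ER stress element, which begins with the CCAAT box, in 0% and 0.123%. Several of these shares rest on fewer than 10 promoters. The APAP-high promoters also had a higher median GC content, 60.4% against 58.8%. These are counts of letters and do not show binding.

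Outside the immediate early genes, the APAP-high class held secreted stress factors, a mediator of cell death and an adhesion molecule. Gdf15, a circulating stress cytokine, was at 241 and 64.8 CPM in the APAP libraries and 2.89 to 5.71 in the other 6. Its interaction was -5.24 ± 0.85 (adjusted p = 0.006535), and -3.97 without APAP library 3. Igfbp1, a secreted binding protein of insulin-like growth factors, was at 541 and 260 CPM in APAP, 46.7 and 24.5 in control, 8.82 and 8.11 in SLIT2 and 9.25 and 19.2 in SLIT2+APAP. APAP was the highest group for Igfbp1, both SLIT2-treated groups were below control, and the interaction was -2.74 ± 0.68 (adjusted p = 0.02286). Ddit3, the proapoptotic factor CHOP of the integrated stress response, was at 19.9 and 8.33 CPM in APAP and 3 to 5.74 elsewhere (interaction -2.55 ± 0.58, adjusted p = 0.0178). Icam1, an adhesion molecule for leukocytes, was at 17.3 and 16 CPM in APAP and 6.41 to 9.72 elsewhere (interaction -1.39 ± 0.33, adjusted p = 0.02). The calls of Igfbp1, Ddit3 and Icam1 were each lost when 1 of several libraries was left out, SLIT2+APAP library 1 among them.

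The list of p53 targets had 4 negative and 2 positive calls among 18, and that of ATF4 and the integrated stress response 4 negative and 1 positive among 18. The shares called, 33.3% and 27.8%, lie near the 28.8% of all genes. Their medians were -1.87 and -1.48. Negative calls were Gdf15, Btg2, Plk3 and Zmat3 for p53, and Ddit3, Phgdh, Ppp1r15a and Slc7a11 for ATF4. Not all of these followed APAP: Zmat3, an RNA-binding p53 target, was at 14.3 and 14.2 CPM in SLIT2 and 4.02 to 5.6 in all other libraries. Slc7a11, the cystine importer that supplies glutathione synthesis, was at 12.2 and 10.8 CPM in SLIT2, 9.78 and 2.58 in APAP, 1.86 and 1.65 in control and 3.52 and 4.56 in SLIT2+APAP, and its call was lost without any 1 of the 6 control, SLIT2 and SLIT2+APAP libraries. APAP library 3 exceeded APAP library 4 for many members. Gadd45b was at 364 and 6.17 CPM in them against 1.01 to 2.57 elsewhere, and its interaction of -5.9 ± 1.94 did not pass (adjusted p = 0.05387). Without APAP library 3 the medians were -0.3 and -0.37, and without APAP library 4 each list had 10 negative calls.

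Genes low in the APAP group were led by Lgr5, Kat6b and Nxpe2. Lgr5, an R-spondin receptor that marks hepatocytes next to the central vein (chr10:115450311-115587780, minus strand), was at 0.661 and 1.02 CPM in the APAP libraries. It was at 7.6 and 6.99 in control, 4.91 and 6.3 in SLIT2, and 5.97 and 3.96 in SLIT2+APAP. APAP alone lowered Lgr5 by -3.11 ± 0.35 on the log2 scale (adjusted p = 0.02833), and with SLIT2 present the APAP effect was -0.18 ± 0.32 (adjusted p = 0.6913). The interaction was 2.93 ± 0.47 (adjusted p = 0.00627), and it ranged from 2.65 to 3.36 over the alternatives tried.

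Kat6b, a histone acetyltransferase, was at 0.249 and 0.534 CPM in APAP, 5.45 and 6.19 in control, 16.7 and 17.7 in SLIT2 and 8.01 and 7.44 in SLIT2+APAP. It was the lowest of the 4 groups under APAP alone and the highest under SLIT2 alone, with an interaction of 2.71 ± 0.45 (adjusted p = 0.00696). Nxpe2, of the neurexophilin and PC-esterase domain family, was at 3.59 and 6.59 CPM in APAP and 9.78 to 24 in the other 6 (interaction 2.61 ± 0.44, adjusted p = 0.007225). Called APAP-low genes had a median GC content of 44% and called APAP-high genes 54.3%, against 49.4% of all genes tested. APAP effects without SLIT2 rose with GC content over all genes, with medians of -0.31 in the lowest quintile and 0.37 in the highest, and the part of GC content in both classes was not tested beyond a fit with GC offsets.

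Of the pericentral Wnt targets, to which Lgr5 belongs, 6 of 16 had a positive interaction that passed (37.5%, against 15.5% of all genes) and none a negative one. They did not share a pattern. Lgr5 was low only in APAP. Lect2, a hepatocyte-secreted chemotactic factor, was at 6.05 and 6.25 CPM in SLIT2 and 62.3 to 99.3 in all other libraries (interaction 4.01 ± 0.36, adjusted p = 0.003125). Slc13a3, a dicarboxylate transporter, was low in both single treatments: 2.36 and 2.05 CPM in SLIT2 and 2.74 and 2.5 in APAP, against 10.7 and 6.95 in control and 9.57 and 6.06 in SLIT2+APAP. Its interaction was 3.58 ± 0.47 (adjusted p = 0.004092). Oat, ornithine aminotransferase, was highest in control, at 910 and 823 CPM, and between 35 and 299 elsewhere. Glul, glutamine synthetase, was too variable to place, with 564 and 33 CPM in the APAP libraries and 317 and 83.6 in SLIT2+APAP (interaction 1.43 ± 1.48, adjusted p = 0.49).

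**Figure D3:**
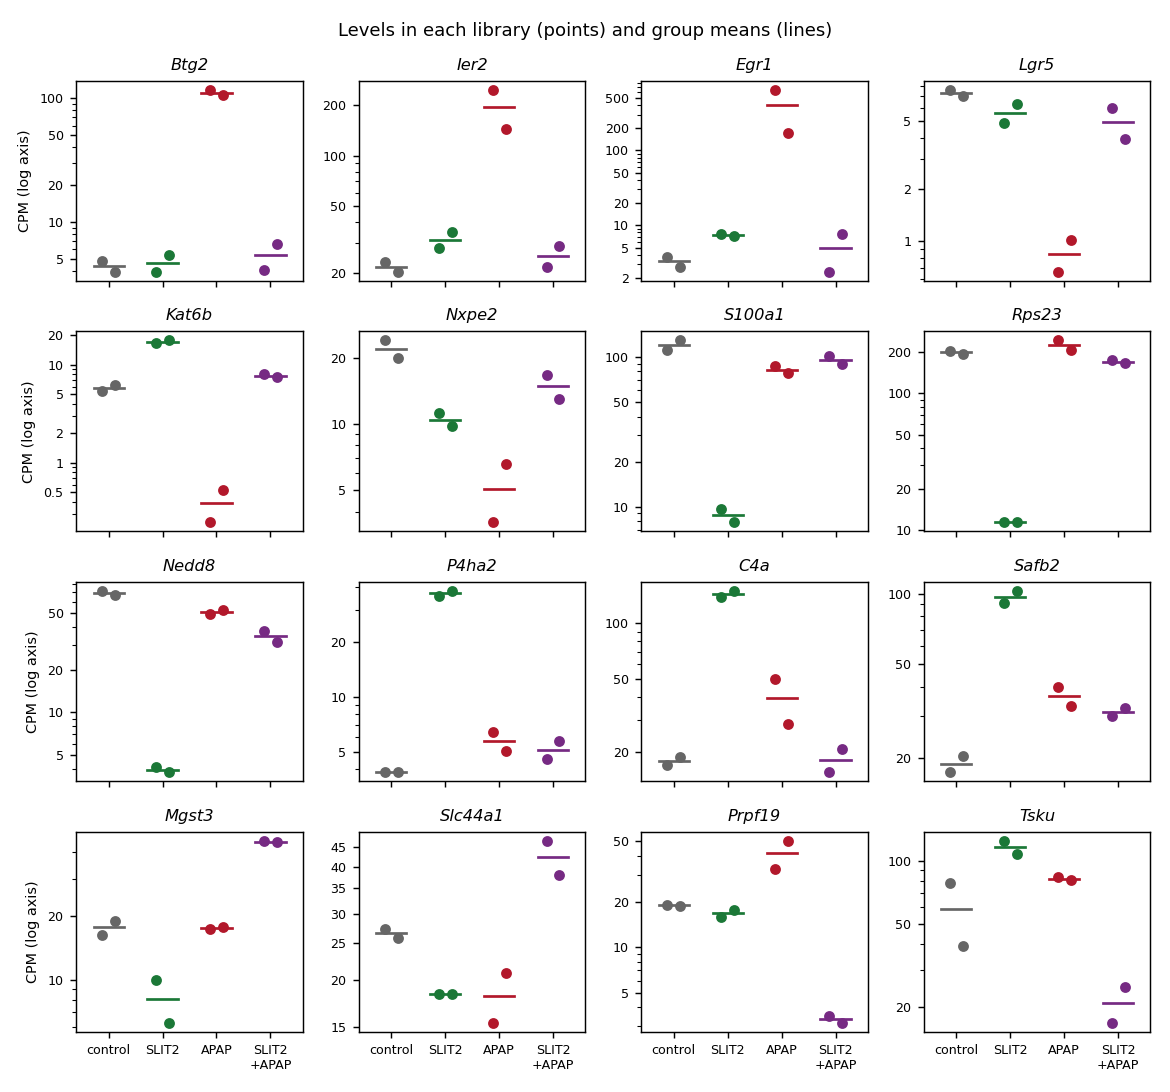
Points are the CPM of each library on a logarithmic axis and lines are group means, for 16 genes that lead the classes. In the upper row Btg2, Ier2 and Egr1 are high and Lgr5 low in the APAP libraries alone, and in the lowest row Mgst3 is high and Prpf19 low in the SLIT2+APAP libraries alone.

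Genes low in the SLIT2 group made the largest class and were mostly abundant, short, protein-coding transcripts. Their median highest group mean was 40.8 CPM against 7.9 for all genes tested, their median transcript length 2199 bases against 3116, and 96.9% were protein-coding against 88.3%. S100a1, a calcium-binding regulator (chr3:90511034-90514392, minus strand), was at 9.67 and 7.88 CPM in SLIT2, 112 and 129 in control, 87.2 and 77.6 in APAP and 101 and 89.3 in SLIT2+APAP. The 3 other groups were close together and the SLIT2 libraries lay far below them, with an interaction of 3.99 ± 0.31 (adjusted p = 0.003125). Rps23, a protein of the small ribosomal subunit, was at 11.5 CPM in both SLIT2 libraries and at 167 to 243 elsewhere (interaction 3.71 ± 0.29, adjusted p = 0.003125). Nedd8, a ubiquitin-like modifier that activates cullin ligases, was at 4.11 and 3.78 CPM in SLIT2 and 31.4 to 71.9 elsewhere (interaction 3.57 ± 0.28, adjusted p = 0.003125). With transcript length offsets, an alternative added after the data were seen, the interactions of S100a1, Rps23 and Nedd8 were 2.63, 2.66 and 2.39, and all stayed past the threshold.

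The nuclear-encoded respiratory chain was the list with the largest called share. Of its 42 members 41 had a positive interaction that passed, 97.6% against 15.5% of all genes. The exception was Ndufs1 at 0.99 ± 0.37 (adjusted p = 0.07814). The median was 2.6, and the SLIT2 group stood apart as low for 38, against 23.2% of all genes tested. Ndufa1, a small subunit of complex I, was at 4.35 and 2.68 CPM in SLIT2, 120 and 111 in control, 112 and 94.7 in APAP and 91.7 and 74.9 in SLIT2+APAP (interaction 4.72 ± 0.39, adjusted p = 0.003125). All complexes took part, with Sdha, Sdhb, Sdhc and Sdhd of complex II, Cyc1 and Uqcrc1 of complex III, Cox4i1 of complex IV and Atp5b of the ATP synthase among the calls. The median SLIT2 effect on the list was -3.1 without APAP and -0.35 with it. Of the members, 26 lie in the shortest quintile of transcripts. The number called was between 30 and 41 over all alternatives, the lowest without SLIT2+APAP library 1.

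The 13 mitochondrially encoded genes, which make the partner subunits of the same complexes, moved the opposite way. All 13 estimates were negative, with a median of -1.36, and 5 passed, 38.5% against 13.3% negative calls over all genes. The 5 were mt-Nd2, mt-Nd4, mt-Nd4l, mt-Nd5 and mt-Nd6, all of complex I. The SLIT2 group stood apart as high for 11 of the 13, against 21.3% of all genes tested. mt-Nd4 was at 40100 and 51400 CPM in SLIT2, 9180 and 10900 in control, 12900 and 9680 in APAP and 16400 and 16100 in SLIT2+APAP (interaction -1.66 ± 0.48, adjusted p = 0.036). mt-Nd4 and mt-Nd4l overlap, so their reads are shared. No member was called without control library 1 or SLIT2+APAP library 1. Leaving these 13 genes out of the fit gave 4733 called genes, 4568 of which were among the 4867.

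Other housekeeping lists of abundant transcripts followed the respiratory chain. Cytosolic ribosomal proteins had 30 of 38 positive calls and no negative one (78.9%, against 15.5% of all genes, median 1.89). SLIT2 was apart as low for 35 members, against 23.2% of all genes tested, and 28 members lay in the shortest length quintile. With transcript length offsets the ribosomal list had 16 positive calls and 1 negative and a median of 0.93, and without SLIT2+APAP library 1 it had 20 positive calls. Proteasome subunits had 19 of 31 positive and none negative (61.3%, against 15.5% of all genes, median 1.42). Psmb7, a catalytic core subunit, was at 11.4 and 6.32 CPM in SLIT2, 186 and 177 in control, 119 and 118 in APAP and 88.8 and 70.9 in SLIT2+APAP (interaction 3.78 ± 0.42, adjusted p = 0.003267). Psmb1 and Psma2, also of the core particle, had interactions of 2.75 ± 0.29 and 3.09 ± 0.35. Without control library 2 or SLIT2+APAP library 1 the proteasome calls numbered 10.

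Plasma proteins and hepatocyte markers, the products that define the liver, had 17 of 25 positive calls and none negative (68%, against 15.5% of all genes, median 1.94). Their summed level was 25000 and 14500 CPM in the SLIT2 libraries and 97800 to 167000 in the other 6. F2, prothrombin, was at 67.4 and 53.6 CPM in SLIT2, 942 and 994 in control, 1190 and 1270 in APAP and 546 and 386 in SLIT2+APAP (interaction 2.6 ± 0.38, adjusted p = 0.004979). Apoh, an apolipoprotein of the coagulation system, was at 109 and 95.1 CPM in SLIT2 and 922 to 1860 elsewhere (interaction 3.22 ± 0.39, adjusted p = 0.003589). Alb was at 8810 and 4220 CPM in SLIT2 and 30300 to 66500 elsewhere, so all libraries expressed this defining hepatocyte gene. Hepatocyte transcription factors did not pass: Hnf4a had an interaction of -0.07 ± 0.39 (adjusted p = 0.9041) and Cebpa of 0.95 ± 0.36 (adjusted p = 0.08135). In bulk tissue, fewer cells of a type and less RNA per cell cannot be told apart. Calls in this list numbered 5 without SLIT2+APAP library 1 and 8 without control library 1.

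Complement components had 14 positive and 2 negative calls among 23 (69.6% in all, against 28.8% of all genes, median 1.54). Mbl2, a mannose-binding lectin that starts the lectin pathway, was at 22.8 and 20.9 CPM in SLIT2, 341 and 306 in control, 215 and 237 in APAP and 195 and 169 in SLIT2+APAP (interaction 3.58 ± 0.3, adjusted p = 0.003125). C8b of the membrane attack complex and Cfi, which cleaves C3b and C4b, had interactions of 2.7 ± 0.39 and 2.8 ± 0.43. Positive calls in the complement list numbered 9 and 8 without control library 1 or 2 and 7 without SLIT2+APAP library 1. The negative calls were C2 and Masp1. Masp1, a lectin pathway protease, followed APAP: it was at 22 and 17.7 CPM in APAP and 3.2 to 4.74 elsewhere (interaction -1.62 ± 0.32, adjusted p = 0.0107).

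Among enzymes that act on APAP and other drugs, SLIT2 stood apart as low for 7 of 17 P450 members and 4 of 18 conjugation members. Over all genes tested that share was 23.2%. Of 17 drug-metabolising P450 genes and partners 7 had positive calls and none a negative one (41.2%, median 1.42). Of 18 glucuronidation and sulfation genes 8 had positive calls and none a negative one (44.4%, median 1.51). Positive calls over all genes were 15.5%, and 38.4% in the quintile of genes with the highest mean CPM. Cyp2e1, the main enzyme that activates APAP, was at 487 and 303 CPM in SLIT2, 2860 and 3000 in control, 4400 and 4140 in APAP and 1990 and 1090 in SLIT2+APAP. SLIT2 was the lowest group and APAP the highest, and the interaction of 1.42 ± 0.52 did not pass (adjusted p = 0.07361). Both SLIT2 effects on Cyp2e1 did pass, with adjusted p = 0.000623 without APAP and 0.03927 with it. Cyp3a11, a pregnane X receptor target, was at 194 and 69 CPM in SLIT2, 2360 and 2320 in control, 1230 and 593 in APAP and 680 and 527 in SLIT2+APAP (interaction 3.56 ± 0.74, adjusted p = 0.01311). Cyb5a, the cytochrome b5 that hands electrons to P450 enzymes, was at 165 and 102 CPM in SLIT2 and 792 to 1180 elsewhere (interaction 3.05 ± 0.41, adjusted p = 0.004255). Ugp2, which makes UDP-glucose for glucuronidation, was at 72.7 and 39.3 CPM in SLIT2 and 204 to 303 elsewhere (interaction 2.56 ± 0.43, adjusted p = 0.00696). Sult2a8, a sulfotransferase, was highest in control, at 1030 and 837 CPM, and at 220 to 434 elsewhere. Without SLIT2+APAP library 1 the P450 list had 1 call, and members of the Cyp2c, Cyp3a and Ugt2b families have near-identical copies, so reads may be split among them.

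Glutathione and NRF2 genes had 6 positive and 2 negative calls among 23 (median 0.59), and 1 positive call without control library 2 or SLIT2+APAP library 1. With all libraries the share called in this list was 34.8%, against 28.8% of all genes. Gclm, a subunit of the enzyme that limits glutathione synthesis, was at 84 and 63.7 CPM in SLIT2, 167 and 206 in control, 127 and 209 in APAP and 249 and 226 in SLIT2+APAP (interaction 1.84 ± 0.41, adjusted p = 0.01701). Nqo1, a quinone reductase and standard NRF2 target, was at 0.958 and 1.32 CPM in SLIT2 and 4.15 to 8.23 elsewhere (interaction 2.31 ± 0.48, adjusted p = 0.01291). Hmox1, heme oxygenase 1, was at 557 CPM in APAP library 3 and 11 in APAP library 4 against 0.84 to 4.58 elsewhere, and its interaction of -5.24 ± 1.88 did not pass (adjusted p = 0.0691). Abcc2, the canalicular exporter of conjugates, was at 196 and 130 CPM in APAP and 50 to 78.4 elsewhere (interaction -1.69 ± 0.4, adjusted p = 0.02043). The calls of Gclm and Abcc2 were lost without any of 5 single libraries, the control and SLIT2+APAP libraries and SLIT2 library 2, and that of Abcc2 also with transcript length offsets.

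Lists of energy metabolism differed in how many members stood apart as low in SLIT2: 12 of 22 for fatty acid oxidation and PPARA targets, 6 of 16 for urea cycle and periportal enzymes and 2 of 18 for gluconeogenesis. The share over all genes tested was 23.2%. Fatty acid oxidation and PPARA targets had 10 positive calls and 1 negative among 22 (50%, against 28.8% of all genes, median 1.68). The positive calls numbered 2 without control library 1 or SLIT2+APAP library 1, 3 without control library 2, and 5 without SLIT2 library 2 or SLIT2+APAP library 2. Acadl, a mitochondrial acyl-CoA dehydrogenase, was at 36.5 and 21.3 CPM in SLIT2 and 135 to 182 elsewhere (interaction 2.61 ± 0.42, adjusted p = 0.00627). The negative call was Ppara itself, the receptor that activates these genes, at 84.9 and 70.6 CPM in SLIT2, 23.3 and 23.5 in control, 55.7 and 31.6 in APAP and 42.1 and 45.9 in SLIT2+APAP (interaction -1.72 ± 0.4, adjusted p = 0.01817). Urea cycle and periportal enzymes had 4 positive calls of 16 (25%, median 0.79), led by Slc25a15, the mitochondrial ornithine carrier, at 2.04 ± 0.33 (adjusted p = 0.006268). Gluconeogenesis genes had 3 positive and 2 negative of 18 (27.8%, median 0.21), and bile acid genes 4 positive and 2 negative of 18 (33.3%, median 0.86). Acute phase proteins had 5 positive calls of 24 (20.8%, median 0.88). The shares called from the urea cycle to the acute phase list lie around the 28.8% of all genes called in either direction. Without SLIT2+APAP library 1 there was 1 call in the urea cycle list and 0 in the acute phase list, and without control library 1 there were 1 and 2. Saa1 and Saa2, the strongest acute phase genes, had interactions of 0.13 ± 1.14 and -1.25 ± 1.28 that did not pass. Both were high in APAP and SLIT2+APAP, with Saa1 at 2000 and 3420 CPM and at 1690 and 501 CPM against 15.1 to 165 elsewhere, and their sequences are near-identical.

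**Figure D4:**
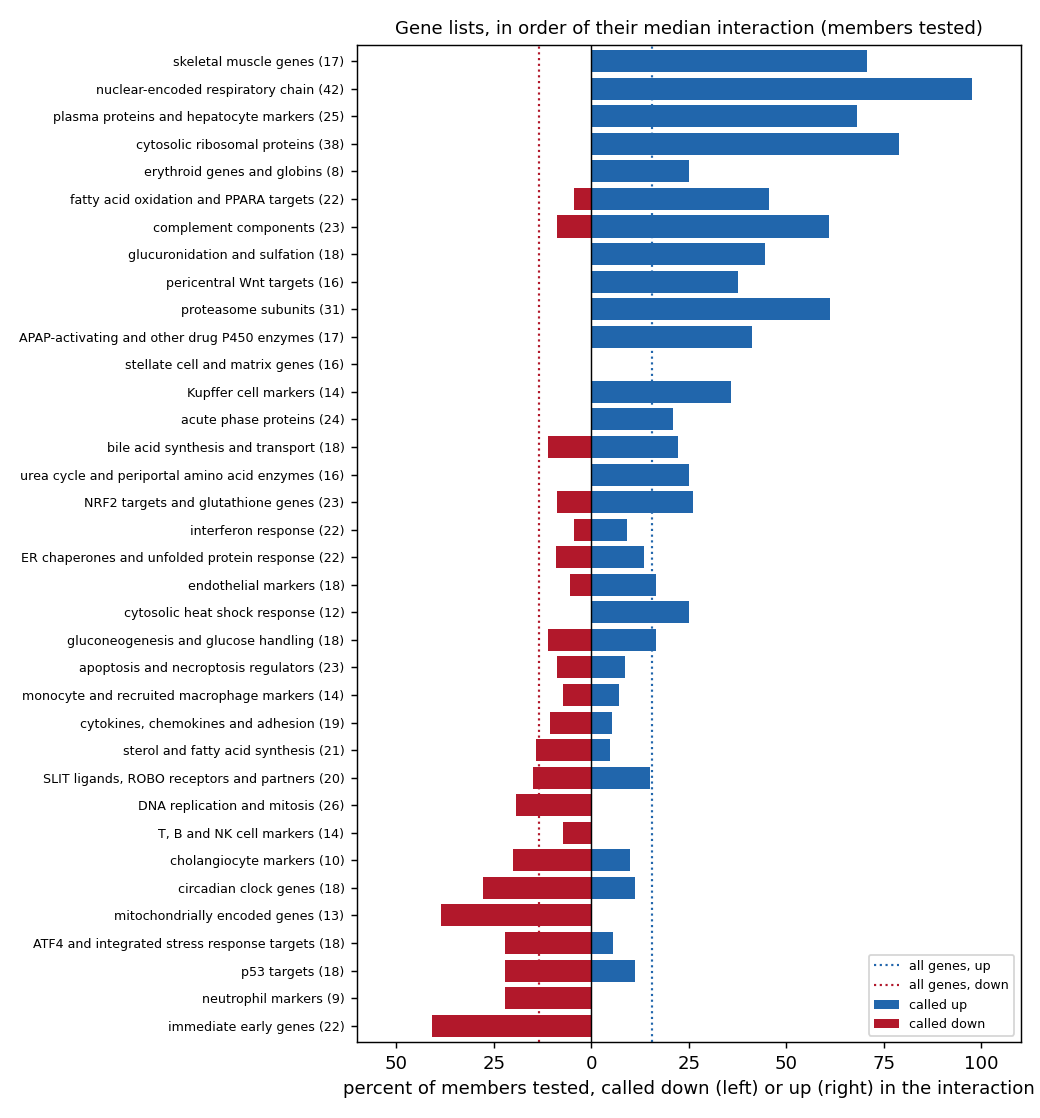
Bars give the percentage of tested members with a positive (right) or negative (left) interaction that passed, for 36 gene lists ordered by median interaction, and dotted lines give the shares of all genes, 15.5% and 13.3%. The respiratory chain reaches 97.6% on the positive side and immediate early genes 40.9% on the negative side.

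Genes high in the SLIT2 group were less abundant and longer than those that were low. Their median highest group mean was 7.48 CPM and median transcript length 3811 bases, and 81% were protein-coding and 10.8% long noncoding RNA, against 88.3% and 5.36% of all genes tested. P4ha2, a prolyl hydroxylase of collagen (chr11:54100095-54131665, plus strand), was at 35.5 and 38.1 CPM in SLIT2, 3.84 and 3.88 in control, 6.41 and 5.03 in APAP and 4.53 and 5.7 in SLIT2+APAP. SLIT2 raised P4ha2 by 3.25 ± 0.24 without APAP (adjusted p = 0.0001002) and changed it by -0.16 ± 0.22 with APAP, and the interaction was -3.41 ± 0.33 (adjusted p = 0.003125). C4a, annotated as a processed transcript beside its near-copy C4b, was at 139 and 150 CPM in SLIT2 and 15.6 to 50.2 elsewhere, and reads may be split between the copies. Safb2, a nuclear scaffold protein, was at 91.1 and 103 CPM in SLIT2 and 17.3 to 39.9 elsewhere (interaction -2.59 ± 0.29, adjusted p = 0.00329).

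Cell death and division genes in this class included Tnfrsf10b, the TRAIL death receptor, at 12.2 and 13.3 CPM in SLIT2 and 1.18 to 2.86 elsewhere (interaction -2.42 ± 0.37, adjusted p = 0.00569). Tyms, thymidylate synthase, was at 49.1 and 50 CPM in SLIT2 and 10.7 to 17.7 elsewhere (interaction -1.25 ± 0.26, adjusted p = 0.01394), and its call was lost without either control library, SLIT2 library 2 or either SLIT2+APAP library. Birc5 and Top2a, of mitosis and chromosome segregation, were also SLIT2-high calls of the replication list, whereas Mki67 was between 0.358 and 0.67 CPM in all libraries (adjusted p = 0.419). Of 26 replication and mitosis genes 5 had negative calls and none a positive one (19.2%, median -0.49), and 1 negative call was left without either control library or SLIT2+APAP library 1. Ccne1, the cyclin that drives entry into S phase, was at 4.03 and 2.75 CPM in APAP and 2.11 and 2.57 in SLIT2, against 0.465 and 0.662 in control and 0.964 and 1.23 in SLIT2+APAP. It was thus high under each agent alone, and its interaction was -3.67 ± 0.52 (adjusted p = 0.004595). The apoptosis list had 2 positive and 2 negative calls of 23 (17.4%, against 28.8% of all genes, median -0.11). Negative calls over all genes were 13.3%, against the 19.2% of the replication list. Both lists were mixed: the SLIT2 group stood apart as low for 8 and high for 4 of the 23 apoptosis members. For the 26 replication members it stood apart as low for 7 and high for 6. Over all genes tested these shares were 23.2% for low and 21.3% for high.

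Circadian clock genes had 5 negative and 2 positive calls among 18 (38.9% in all, against 28.8% of all genes, median -0.99). Ciart, a repressor of the clock, was at 23.3 and 36.1 CPM in SLIT2, 0.87 and 3.6 in control, 21.9 and 5.32 in APAP and 6.63 and 3.3 in SLIT2+APAP (interaction -5.18 ± 1.14, adjusted p = 0.01606). Per1, a core repressor also induced by stress hormones, was at 40.4 and 54.4 CPM in SLIT2, 12.5 and 8.65 in control, 180 and 25.9 in APAP and 24.4 and 22.9 in SLIT2+APAP (interaction -4.28 ± 1.03, adjusted p = 0.02076). Clock, an activator, was at 5.85 and 2.72 CPM in SLIT2 and 13.6 to 21.7 elsewhere (interaction 2.35 ± 0.5, adjusted p = 0.01469). Dbp, an output gene, differed widely even between the control libraries, at 4.03 and 71.4 CPM. The sources used here do not give the time of day of sampling, and no clock gene was called without control library 1 or SLIT2+APAP library 1.

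The SLIT2+APAP group stood apart for only 26 called genes. Mgst3, a microsomal glutathione transferase (chr1:167371966-167393841, minus strand), was at 45.1 and 44.6 CPM there, 16.3 and 19 in control, 9.92 and 6.26 in SLIT2 and 17.4 and 17.7 in APAP. SLIT2 lowered Mgst3 by -1.12 ± 0.25 without APAP (adjusted p = 0.006238) and raised it by 1.35 ± 0.25 with APAP (adjusted p = 0.01581), for an interaction of 2.48 ± 0.35 (adjusted p = 0.004645). Slc44a1, a choline transporter, was at 46.8 and 38 CPM in SLIT2+APAP and 15.4 to 27.4 elsewhere (interaction 1.76 ± 0.31, adjusted p = 0.00836). Fyb, an adaptor of immune cell adhesion, was at 25.7 and 29.9 CPM and 9.21 to 17.4 elsewhere. Cyp2a5, a P450 enzyme induced in liver injury, was at 724 and 900 CPM in SLIT2+APAP and 175 to 398 elsewhere (interaction 2.09 ± 0.54, adjusted p = 0.02581), with Cyp2a22 and other near-copies that may share reads.

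Prpf19, a ubiquitin ligase of the spliceosome and of DNA repair (chr19:10895231-10909559, plus strand), was the leading gene on the low side. It was at 3.5 and 3.16 CPM in SLIT2+APAP, 19.1 and 18.7 in control, 15.9 and 17.6 in SLIT2 and 33 and 50.3 in APAP. The SLIT2+APAP libraries lay below all others, and the interaction was -3.47 ± 0.35 (adjusted p = 0.003125). Tsku, a secreted hepatokine of cholesterol handling, was at 16.9 and 25 CPM in SLIT2+APAP and 39.2 to 124 elsewhere (interaction -2.95 ± 0.49, adjusted p = 0.006732). Susd4, a complement inhibitor, was at 2 and 1.97 CPM and 4.44 to 9.47 elsewhere. Of the named genes of the SLIT2+APAP class, Mgst3, Prpf19 and Tsku stayed called under all alternatives. Slc44a1 (adjusted p = 0.05514) and Fyb (0.05003) did not without SLIT2+APAP library 1, nor did Susd4 without any of 4 single libraries.

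The control group stood apart for 148 called genes. Of 17 skeletal muscle genes 12 had positive calls and none a negative one (70.6%, against 15.5% of all genes). The number was 3 without APAP library 4, 4 without SLIT2 library 2, 6 without SLIT2 library 1, APAP library 3 or SLIT2+APAP library 1, and 1 without SLIT2+APAP library 2. Ckm, muscle creatine kinase, was at 180 and 18.7 CPM in the control libraries and at 0.205 or less in all 6 others, where it rested on a few counts. Its call, and that of Mb (myoglobin), were lost without SLIT2+APAP library 2. The summed level of the list was 1340 and 155 CPM in the control libraries and 5.35 to 41.6 elsewhere, and Neb alone made up 30.1 and 38.1 CPM of it in the SLIT2 libraries. These genes are not made by hepatocytes, and their part in other control differences was not tested. Srd5a1, steroid 5-alpha-reductase, was at 110 and 104 CPM in control and 14.6 to 47 elsewhere (interaction 2.51 ± 0.38, adjusted p = 0.005642). On the low side Arid5b, a chromatin regulator, was at 6.09 and 6.06 CPM in control and 11.2 to 23.2 elsewhere, and Sema4b, a semaphorin, at 2.17 and 2.64 against 5.04 to 9.76. SLIT2 without APAP raised Arid5b by 1.63 ± 0.28 and Sema4b by 1.93 ± 0.27 on the log2 scale, whereas APAP without SLIT2 gave 1.61 (adjusted p = 0.05177) and 1.36 (adjusted p = 0.05869), which did not pass. Their interactions were -2.21 ± 0.39 and -2.17 ± 0.37, and both calls were lost without SLIT2+APAP library 1.

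Markers of nonparenchymal cells were read by the same lists. Kupffer cell markers had 5 positive calls of 14 and none negative (35.7%, against 15.5% positive over all genes, median 1.19). Their sum was 90.3 and 83.7 CPM in SLIT2 and 205 to 246 elsewhere. Their calls numbered 2 without control library 2 or either SLIT2+APAP library. Vsig4, a complement receptor of these resident macrophages, was at 1.27 and 1.36 CPM in SLIT2 and 6.2 to 12.5 elsewhere (interaction 2.75 ± 0.51, adjusted p = 0.00928). Clec4f, another defining Kupffer marker, was at 18.7 to 28.9 CPM in all libraries (adjusted p = 0.9624), so the members did not move together. The summed neutrophil markers were at 37.8 and 33.8 CPM in SLIT2, 24 and 9.2 in APAP and 3.65 to 9.8 elsewhere. Cxcr2 and Csf3r made most of the sum in SLIT2, and 5 of the 9 members stood apart as high in APAP against 2 in SLIT2. Over all genes tested the shares were 7.5% for APAP high and 21.3% for SLIT2 high. The list had 2 negative calls of 9 (22.2%, against 13.3% negative over all genes, median -2.87), namely Cxcr2 and Csf3r. Cxcr2, the main neutrophil chemokine receptor, was at 26.8 and 26.3 CPM in SLIT2 and 1.62 to 4.84 elsewhere (interaction -2.8 ± 0.34, adjusted p = 0.003589). The granule genes S100a8 and S100a9 were instead highest in APAP, at 7.05 and 1.99 and at 8.98 and 2.89 CPM, and their interactions did not pass (adjusted p = 0.06759 and 0.05999). Granule gene Elane was at 0 counts in both SLIT2 libraries.

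The other marker lists had 0% to 30% of their members called, against 28.8% of all genes. Monocyte markers had 1 positive and 1 negative call of 14 (14.3%), and T, B and NK markers 1 negative of 14 (7.14%). Cholangiocyte markers had 1 positive and 2 negative of 10 (30%). Endothelial markers had 3 positive and 1 negative of 18 (22.2%), and erythroid genes 2 positive of 8 (25%). Stellate cell and matrix genes had none of 16, with a median of 1.21 and the smallest p for Des (3.23 ± 1.04, adjusted p = 0.05003). Lyz2, lysozyme of macrophages, was at 2.2 and 1.86 CPM in SLIT2 and 7.64 to 26.4 elsewhere (interaction 2.43 ± 0.43, adjusted p = 0.00836). Interferon response genes had 2 positive and 1 negative call of 22 (13.6%), and cytokines 1 and 2 of 19 (15.8%). ER chaperones and unfolded protein response genes had 3 and 2 of 22 (22.7%), and the cytosolic heat shock response 3 and 0 of 12 (25%). Sterol and fatty acid synthesis had 1 and 3 of 21 (19%). Hspa5, the ER chaperone BiP, was lowered by SLIT2 in both settings and not called in the interaction: it was at 59.5 and 48.2 CPM in SLIT2, 413 and 532 in control, 1160 and 1020 in APAP and 137 and 162 in SLIT2+APAP (interaction 0.27 ± 0.36, adjusted p = 0.5998). Srebf1, the transcription factor of fatty acid synthesis, was at 113 and 236 CPM in SLIT2 and 502 and 145 in APAP against 39.5 to 106 elsewhere (interaction -3.44 ± 0.85, adjusted p = 0.02271). The Srebf1 call was lost without either control library, SLIT2 library 2 or either SLIT2+APAP library, and its lowest estimate in size was -2.25.

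**Figure D5:**
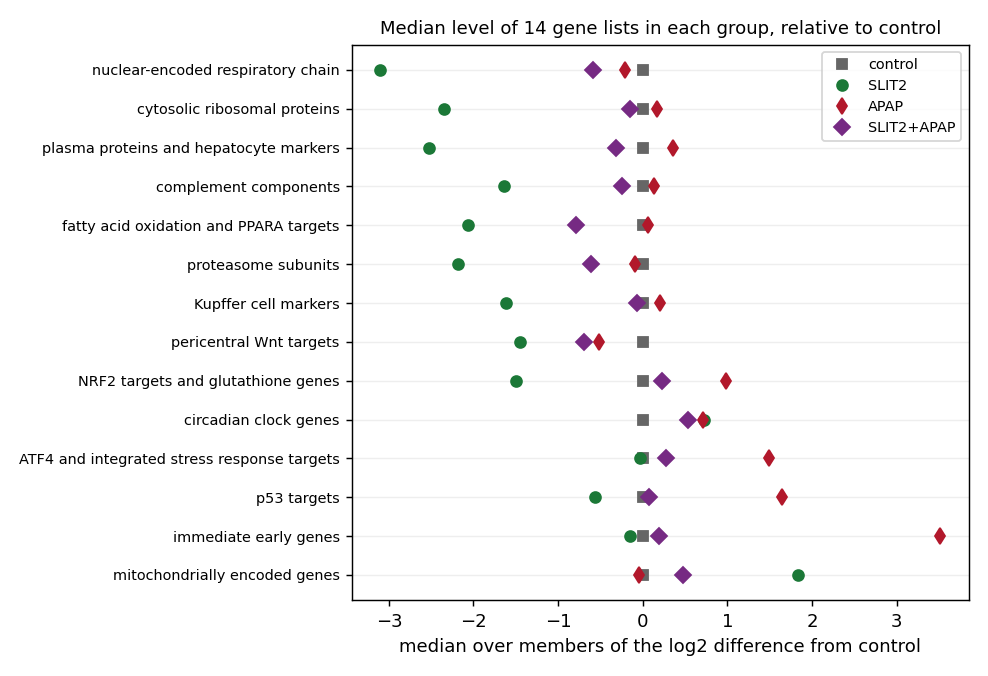
Symbols give, for 14 gene lists, the median over members of the log2 difference of each group from control, which is set at 0. The SLIT2 group lies at -3.1 for the respiratory chain and 1.83 for mitochondrially encoded genes, and the APAP group at 3.52 for immediate early genes, while SLIT2+APAP lies nearer to control in each.

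SLIT ligands, ROBO receptors and partners had 3 positive and 3 negative calls of 20 (30%, against 28.8% of all genes), with a median of -0.46 that changed sign under 4 alternatives. The Slit2 transcript itself was at 1.28 and 1.47 CPM in the SLIT2 libraries and at 0.163 or less in all others. Its interaction of -2.53 ± 0.88 did not pass (adjusted p = 0.06243). Whether these reads came from mouse Slit2 cannot be told from counts. Robo1, a receptor, was lowest in APAP, at 0.748 and 0.913 CPM, against 2.49 and 2.54 in control, 4.53 and 5.69 in SLIT2 and 2.28 and 2.71 in SLIT2+APAP. SLIT2 raised Robo1 both without APAP (adjusted p = 0.01684) and with it (adjusted p = 0.01671), so the interaction was small, 0.56 ± 0.41 (adjusted p = 0.3207). Robo2 (-0.91 ± 0.5) and the endothelial receptor Robo4 (-2.83 ± 0.98) did not pass either, with adjusted p = 0.1957 and 0.06245. Among downstream partners Rac1 and Cdc42, the GTPases that ROBO signalling controls, were lowest in SLIT2, with Rac1 at 18.8 and 15.4 CPM and 50.3 to 114 elsewhere (interaction 1.57 ± 0.31, adjusted p = 0.01096). Abl1, a kinase that binds ROBO, was highest there, at 27 and 25.3 CPM against 7.78 to 17 (interaction -1.41 ± 0.36, adjusted p = 0.02578). The Abl1 call was lost in 8 of 21 settings, among them library totals, GC offsets, transcript length offsets and leaving out control library 1 or any SLIT2 or SLIT2+APAP library, and that of Rac1 without control library 1 or SLIT2+APAP library 1.

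The gene just inside the threshold was Camkmt, with an interaction of 2.87 ± 0.93 (adjusted p just under 0.05). Its call was lost in 16 of 20 settings, DESeq2 among them. The gene just outside was Veph1, with -1.46 ± 0.47 (adjusted p = 0.05001). An exact permutation test of 2 libraries against 2 could not go below 0.333, and the calls come from a model that combines the spread of each gene with that shared across genes. Counting was without a stated use of strand, so for genes with an overlapping partner, such as Ddit3 (Mars), Srebf1 (Rai1) and Dnaja1 (Smu1), reads of both cannot be told apart.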

How the data were processed

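Liver RNA was sequenced from 8 libraries with a directional kit, per the labels' protocols. Cuffdiff 2.2.1, Cufflinks, STAR 2.5.4 and build mm10 are listed, without roles, per the submitters' processing notes. The authors deposited whole-number counts per gene, and 72 of the 93 largest values, those with 7 or more digits, end in 0. Symbols and coordinates came from GENCODE M21 (GRCm38), which matched 22329 of 23006 gene identifiers (97.1%). Counts were fitted with edgeR 4.0.16 (R 4.3.3) by its quasi-likelihood test, with TMM scaling, filterByExpr and 1 mean per group over all 8 libraries, and p-values were adjusted by Benjamini-Hochberg over all 16876 genes (threshold 0.05). CPM use TMM-scaled library sizes, and group means of log2 CPM a prior count of 2. The pipeline was tested on simulated data. Named genes were the 3 smallest p per class (at least 5 CPM in the highest group, both libraries apart) and up to 3 called members per list (at least 1 CPM); others, such as further immediate early genes, Cyp2e1, Hspa5, Alb and Saa1, were chosen after their values were seen. Members and all 36 lists were chosen with earlier results of these data known. DESeq2 1.42.0 and other settings were alternatives. The 2 libraries within each group differed by more than sampling noise, and other pairs were not compared. Some genes chosen by the rule are not reported here.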

Additional observations from a re-analysis of the deposited data

Results flagged for a closer look

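Each gene below had a SLIT2 effect that differed between animals without and with APAP in the test of the interaction itself. Values in parentheses are log2 interactions, and positive values mean a higher SLIT2 effect with APAP. No explanation was weighed for any of them. Many of these calls were not kept in every setting of the closing section. That of Camkmt was lost in 16 of 20 settings and that of Krt8 in 11 of 21. The calls of Pmaip1, Pnpla3, Cx3cr1 and mt-Nd4 were lost in 8 settings each. The values of Ckm, Mb and Myh4 rest on few counts outside control, depend on the fit and are neither folds to be read nor bounds. The APAP group was high for Abcc2 (-1.69), Btg2 (-4.44), Ddit3 (-2.55), Egr1 (-7.51), Gdf15 (-5.24), Icam1 (-1.39), Ier2 (-3.49) and Igfbp1 (-2.74). The APAP group was low for Kat6b (2.71), Lgr5 (2.93) and Nxpe2 (2.61). The SLIT2 group was high for Abl1 (-1.41), C4a (-4.12), Cd3d (-3.65), Csf3r (-2.93), Cxcr2 (-2.8), P4ha2 (-3.41), Pmaip1 (-3.1), Safb2 (-2.59), Stat2 (-1.82), Tnfrsf10b (-2.42), Tyms (-1.25), Zmat3 (-1.98) and mt-Nd4 (-1.66). Among genes low in SLIT2 were Acadl (2.61), Acadm (2.24), Apcs (4.42), Apoh (3.22), Arg1 (2.26), Bst2 (3.25), C1qa (2.9), C8b (2.7) and Camkmt (2.87). Others low in SLIT2 were Cd5l (1.37), Cdc42 (1.86), Cfi (2.8), Clec4g (1.96), Clock (2.35), Cpt2 (3.02), Crp (3.7) and Cyb5a (3.05). Also low in that group were Cyp2c50 (2.19), Cyp3a11 (3.56), Cyp51 (2.72), Dnaja1 (1.74), F2 (2.6), Gclm (1.84), Gstm2 (3.67), Hbb-bt (3.69) and Hspd1 (1.98). The same group was low for Hspe1 (2.13), Itih4 (2.36), Krt8 (1.26), Lect2 (4.01), Lyz2 (2.43), Mbl2 (3.58), Ndufa1 (4.72), Ndufa2 (3.45) and Ndufb3 (2.96). Further genes of this kind were Nedd8 (3.57), Nqo1 (2.31), Oit3 (2.53), Pdia3 (3.04), Psma2 (3.09), Psmb1 (2.75), Psmb7 (3.78), Rac1 (1.57) and Rbp4 (2.29). The remaining ones were Rps14 (3.6), Rps20 (3.41), Rps23 (3.71), S100a1 (3.99), Sec61b (3.28), Slc25a15 (2.04), Ugp2 (2.56), Ugt2a3 (2.91) and Vsig4 (2.75). The combined treatment was high for Fyb (1.63), Mgst3 (2.48) and Slc44a1 (1.76). The combined treatment was low for Prpf19 (-3.47), Susd4 (-1.93) and Tsku (-2.95). Control was high for Ckm (13.73), Mb (12.42), Myh4 (10.75), Ppp1r3c (2.1), Srd5a1 (2.51) and Sult2a8 (2.29). Control was low for Adam11 (-2.95), Arid5b (-2.21) and Sema4b (-2.17). No single group stood apart for Amacr (1.81), Ccne1 (-3.67), Ciart (-5.18), Cx3cr1 (-2.41), Cyp27a1 (-2.57) and Ifih1 (1.53). The same held for Kdr (1.48), Mcm5 (-3.64), Otc (1.81), Per1 (-4.28), Phgdh (-3.81), Pnpla3 (-5.99) and Pygl (2.1). It also held for Sel1l (-2.61), Slc13a3 (3.58), Slc7a11 (-3.32), Sox9 (-4.42), Srebf1 (-3.44), mt-Nd4l (-2.41) and mt-Nd5 (-2.67).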

How the results depend on the processing

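None of the 120 genes chosen by the naming rule changed sign in the settings that tested it, which were 19 to 21 per gene. Their calls were less stable than their signs. With all libraries kept, 7 calls were lost with transcript length offsets and 5 with the replicate block. Many more were lost when a control library, SLIT2 library 2 or a SLIT2+APAP library was left out, SLIT2+APAP library 1 above all. With at least 10 CPM in 2 libraries only 96 of them were tested. The medians of 9 of 36 gene lists did change sign in at least 1 setting. These were ER chaperones, sterol synthesis, gluconeogenesis, interferon, cytokines, apoptosis, SLIT and ROBO, monocyte and endothelial. The interaction count of 4867 was 3303 with at least 10 CPM in 2 libraries, 3559 with the replicate block and between 4044 and 5671 under the other settings that kept all libraries. Genes changed by APAP without SLIT2 numbered 133, and 236 with library totals, 205 with no count filter, 1836 by DESeq2, 54 by the legacy edgeR fit, 67 with GC content offsets and 79 with counts thinned to equal depth outside the mitochondrially encoded genes. With at least 10 CPM, 81 called genes had control apart and 2205 had SLIT2 apart, 3212 genes met the stricter sorting, and SLIT2 without APAP changed 4645 genes and APAP with SLIT2 3759. By DESeq2, APAP stood apart for 345 and SLIT2 with APAP changed 3532. With transcript length offsets SLIT2+APAP stood apart for 50. With a gap over 1, control stood apart for 88, APAP for 131 and SLIT2+APAP for 14, and by both libraries lying apart, control for 505, SLIT2+APAP for 158 and no group for 264. The main fit left replicate numbers out because the labels number the APAP libraries differently from the other groups. Same-numbered libraries of those other groups did not deviate together (r across genes of 0.07, -0.07 and -0.01). With the replicate block, APAP stood apart for 114, SLIT2+APAP for 17 and no group for 720, SLIT2 with APAP changed 1221 genes and APAP without SLIT2 36. Leaving out 1 library gave 1002 to 8303 interaction calls, of which 53.1% to 79.9% were positive. It gave 13 to 302 with control apart, 832 to 3940 with SLIT2, 14 to 1754 with APAP, 6 to 52 with SLIT2+APAP and 137 to 2508 with no group, and 2695 to 9154 in the stricter sorting. Simple effects ranged from 6272 to 11672 (SLIT2 without APAP), 21 to 6133 (SLIT2 with APAP), 0 to 5181 (APAP without SLIT2) and 2798 to 9660 (APAP with SLIT2), and called list members from 112 to 388. Where a library was left out its group had 1 library, assumed to vary like the others, and the cause of these changes was not tested. Length offsets and that thinning were chosen after seeing the data. Depth outside mitochondrial genes, 18.9 M counts at the lowest, limits genes of low level in the SLIT2 libraries.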
